A study of Mus musculus with 2 samples.

Results

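The 10 genes described here include receptor chains of interleukin-2, interleukin-7 and interleukin-4 (Il2ra, Il2rb, Il2rg, Il7r, Il4ra). The others encode Janus kinases that act with those receptors (Jak1, Jak3) and transcription factors those kinases activate (Stat5a, Stat5b, Stat3). The 10 genes were found by matching Entrez identifiers to mouse symbols, and all 10 were present among the 27179 genes of the count table. RNA sequencing covered cells of ALL211, a T-cell acute lymphoblastic leukemia (T-ALL) that arose in a mouse with the transgenes Vav-tTA and TRE-GFP-shIkaros. There, a transactivator expressed from the Vav promoter of blood cells drives a short hairpin RNA against Ikaros linked to GFP, and doxycycline (Dox) turns both off so that endogenous Ikaros can return. The leukemia was carried in recipient mice, and its cells were sorted by flow cytometry from their spleens. The Dox group was treated for 3 days and sorted as GFP-mid cells (n = 1 library), and the untreated group was sorted as GFP-high cells (n = 1 library). Both groups carry the hairpin transgene, all cells derive from 1 primary leukemia, and both samples have the same batch date. The sources used here do not give the ages of the mice.

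The Dox library held 16484613 counts and the untreated library 16960042. The design names 2 mice per condition, whereas the labels give 1 sample each, so nothing here can be set against a spread between replicates, and p-values are not given. Intervals are 95% intervals of counting error only, and PCR copies of a molecule would make them too narrow. Treatment, sorting gate and mouse differed together and cannot be told apart. Ikzf1, the gene that encodes Ikaros, stood at 1229 CPM (counts per 1000000 counts of the library, scaled between libraries) in the Dox library and 120.5 CPM in the untreated library, in the direction the labels give. The T-cell label fitted the markers: all 13 T-cell markers exceeded 1 CPM in both libraries, led by Thy1 at 1920 CPM in the Dox library and 2145 CPM in the untreated library, and Lck at 1191 and 1279 CPM. Thy1 and Lck were slightly lower in the Dox library, whereas 11 of the 13 were higher there. The median log2 fold (Dox minus untreated) of the 13 was 0.62, against -0.01 over all genes tested. The list summed to 9753 CPM in the Dox library and 7441 CPM in the untreated library.

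Receptors of this family share the common gamma chain encoded by Il2rg, which pairs with other chains in each receptor. Jak1 binds signalling chains such as those of Il2rb, Il7r and Il4ra, and Jak3 the common gamma chain. When a cytokine joins the chains, the kinases phosphorylate the receptor and then STAT proteins, which pair, enter the nucleus and bind DNA. Interleukin-7 acting through Il7r sustains early T-cell precursors, and Il2ra, also called CD25, marks early thymocytes, activated T cells and regulatory T cells. STAT5 activity is known in human T-ALL, where mutations of IL7R, JAK1, JAK3 and STAT5B occur.

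Among the 10 genes, Il4ra, Jak1 and Il2rg (3 genes) were higher in the Dox library by 2-fold or more, Il2ra and Il2rb (2 genes) were lower by 2-fold or more, and 5 lay within 2-fold. All 10 exceeded 1 CPM in both libraries, so none entered through a single library. Among the 12125 genes that reached 1 CPM in either library, 13.6% were higher by 2-fold or more and 13.0% were lower by 2-fold or more. The other 8900 lay within 2-fold. By the stricter rule that the whole counting interval exceed 2-fold, 3 of the 10 genes were higher and 2 lower, against 9.11% and 8.38% of all genes. Counts of 3 and 2 among 10 are too few to be read against those shares. The median log2 fold (Dox minus untreated) of the 10 genes was 0.38, against -0.01 over all genes tested.

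**Figure D1:**
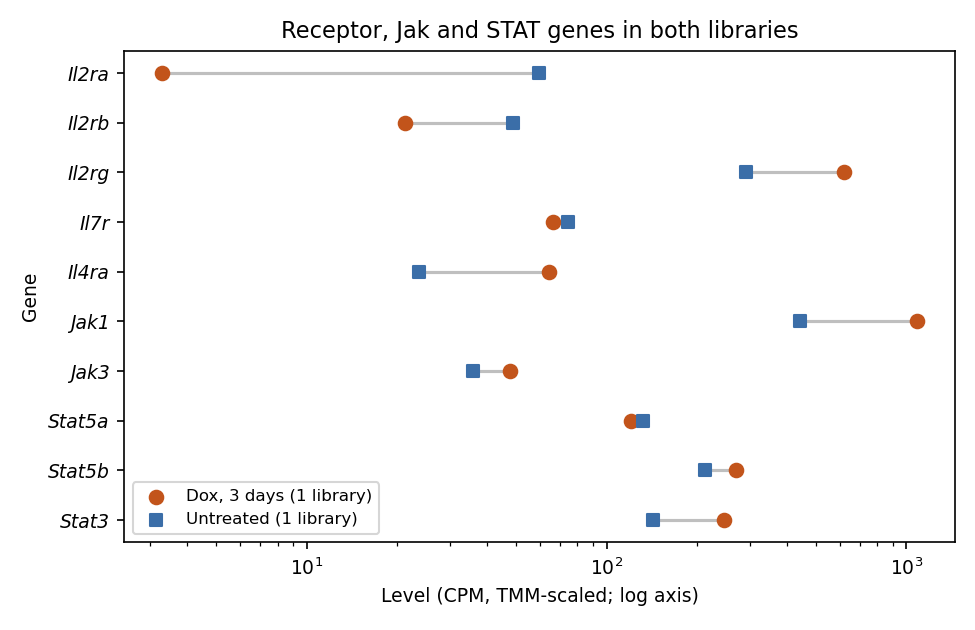
Level of each gene in the Dox library (circles) and the untreated library (squares), in CPM on a log axis, 1 library each. The widest gap is that of Il2ra, at 3.30 CPM in the Dox library and 59.6 CPM in the untreated library, while Il7r and Stat5a nearly coincide.

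The promoter windows of the 4 genes below are shown because these genes differed at least 2-fold and have an entry in the RefSeq promoter table (GRCm38.p6). Each runs from 250 bases before to 50 bases after the annotated start site, 5′ to 3′ on the gene's strand, at chr2:11642542-11642841 (plus strand) for Il2ra, chrX:101268206-101268505 (minus) for Il2rg, chr7:125552021-125552320 (plus) for Il4ra and chr4:101265174-101265473 (minus) for Jak1. Capitals mark GGGAA on either strand, the core that Ikaros zinc fingers bind.
Il2ra: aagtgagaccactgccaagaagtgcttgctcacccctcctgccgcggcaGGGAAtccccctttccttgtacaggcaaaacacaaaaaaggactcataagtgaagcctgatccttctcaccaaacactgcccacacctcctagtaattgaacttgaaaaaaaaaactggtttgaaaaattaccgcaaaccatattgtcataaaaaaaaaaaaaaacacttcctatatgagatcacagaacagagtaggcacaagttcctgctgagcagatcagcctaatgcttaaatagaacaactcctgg
Il2rg: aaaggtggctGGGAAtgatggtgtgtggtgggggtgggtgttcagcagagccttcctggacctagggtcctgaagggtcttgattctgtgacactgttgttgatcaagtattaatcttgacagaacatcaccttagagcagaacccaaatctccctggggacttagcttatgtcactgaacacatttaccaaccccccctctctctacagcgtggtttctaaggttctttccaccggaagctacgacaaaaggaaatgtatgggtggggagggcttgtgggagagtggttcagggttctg
Il4ra: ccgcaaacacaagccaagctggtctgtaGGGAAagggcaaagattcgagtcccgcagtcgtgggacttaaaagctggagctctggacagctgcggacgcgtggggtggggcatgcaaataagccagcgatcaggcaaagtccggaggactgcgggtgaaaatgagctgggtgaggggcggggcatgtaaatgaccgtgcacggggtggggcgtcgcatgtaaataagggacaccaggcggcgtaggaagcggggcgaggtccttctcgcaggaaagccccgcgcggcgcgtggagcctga
Jak1: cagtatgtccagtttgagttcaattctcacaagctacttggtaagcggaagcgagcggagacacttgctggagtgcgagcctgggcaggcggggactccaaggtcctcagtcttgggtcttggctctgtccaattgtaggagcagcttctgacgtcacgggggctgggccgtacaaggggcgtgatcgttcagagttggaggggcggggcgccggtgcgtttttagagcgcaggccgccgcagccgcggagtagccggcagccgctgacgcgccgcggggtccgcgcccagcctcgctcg

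With both strands searched, GGGAA was found in 6 of the 11 windows of the 9 genes with an entry, 1 each of Il2ra, Il2rg, Il4ra, Il7r, Stat5a and Stat5b, and in 62.7% of all 32851 windows of the table. The longer TGGGAA, which holds a GGGAA and is also contained in the site of the Notch partner RBPJ, occurred in the Il2rg window, 241 bases before the start site, and in 25.6% of all windows. The STAT motif TTCNNNGAA occurred in the Il7r window, 142 bases before the start site, where the matched letters TTCAGGGAA also hold a GGGAA, and in 8.3% of all windows. The ETS motif GGAAGT lay in windows of 5 members, among them Il2ra at 35 bases before the start site on the opposite strand, and in 23.8% of all windows. In the Stat5b window at chr11:100822521-100822820 it overlapped the GGGAA, 84 and 85 bases before the start site. The other Stat5b window, at chr11:100850532-100850831, held neither GGGAA nor GGAAGT. The FOXO motif GTAAACA was in 0 of the 11 member windows and 3.6% of all windows. The Il2ra window had 42.7% G and C, the Jak1 window 64.7%, and the median of all windows was 52.7%.

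Il2ra encodes the alpha chain that raises the affinity of the interleukin-2 receptor (Entrez 16184; GRCm38 chromosome 2, 11642792 to 11693194). It had 54 counts in the Dox library and 1018 in the untreated library, or 3.30 and 59.6 CPM. Its level was 18.1-fold lower in the Dox library, with a counting interval from 13.8-fold to 24.2-fold (log2 fold -4.13). Its log2 fold ranked 38 from the lowest among the 12125 genes. In bulk samples, fewer cells of a type and less RNA per cell cannot be told apart, so a uniform drop and the loss of an Il2ra-rich fraction read alike here. The nearest genes on the chromosome differed far less, Rbm17 upstream with a log2 fold of -0.68 and Il15ra downstream with -0.45. Il15ra had only 22 counts in the Dox library and 32 in the untreated library.

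Il2rb encodes the beta chain that the interleukin-2 and interleukin-15 receptors share (chromosome 15, 78479256 to 78511621). It had 349 counts in the Dox library and 834 in the untreated library, or 21.3 and 48.9 CPM. The level was 2.29-fold lower in the Dox library (interval 2.02-fold to 2.61-fold, log2 fold -1.19). Its flanking expressed genes were lower as well, Kctd17 with a log2 fold of -1.62 and C1qtnf6 with -0.91. Natural killer cells carry much Il2rb, and their 8 markers summed to 7.94 CPM in the Dox library and 0.879 CPM in the untreated library, the opposite direction to Il2rb. Prf1 had 39 counts in the Dox library and 0 in the untreated library, and Nkg7 had 28 and 2. Gzmb had 0 counts in both libraries. The part of such cells in the Il2rb value was not tested.

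Il2rg, the common gamma chain gene (chromosome X, 101264385 to 101268255), was the most abundant of the receptor genes per length in both libraries. It had 10133 counts in the Dox library and 4973 in the untreated library, or 618.7 and 291.3 CPM. It was 2.12-fold higher in the Dox library (interval 2.05-fold to 2.20-fold, log2 fold 1.09). In GENCODE M21, 42.01% of its longest transcript was shared, in stretches of 50 bases, with the overlapping gene Gm20489, and 30.5% of its exonic bases belong to both genes, so how reads in that part were assigned bears on its level. Subunit genes of the interleukin-2 receptor thus stood on opposite sides, Il2ra and Il2rb lower and Il2rg higher in the Dox library.

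Il4ra, the specific chain of the interleukin-4 receptor (chromosome 7, 125552271 to 125579474), had the highest log2 fold of the 10 genes. It had 1052 counts in the Dox library and 405 in the untreated library, or 64.2 and 23.7 CPM, 2.71-fold higher in the Dox library (interval 2.41-fold to 3.04-fold, log2 fold 1.43). The antisense gene Gm44876 covers 9.51% of its exonic bases in GENCODE M21. The adjacent Il21r, 23778 bases away, encodes the interleukin-21 receptor and also pairs with the gamma chain. Il21r stood at 208.4 CPM in the Dox library and 103.0 CPM in the untreated library (log2 fold 1.02). Il7r, the interleukin-7 receptor alpha chain (chromosome 15, 9506159 to 9529941), differed little. It had 1083 counts in the Dox library and 1273 in the untreated library, or 66.1 and 74.6 CPM (ratio 0.887, interval 0.817 to 0.962, log2 fold -0.17).

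**Figure D2:**
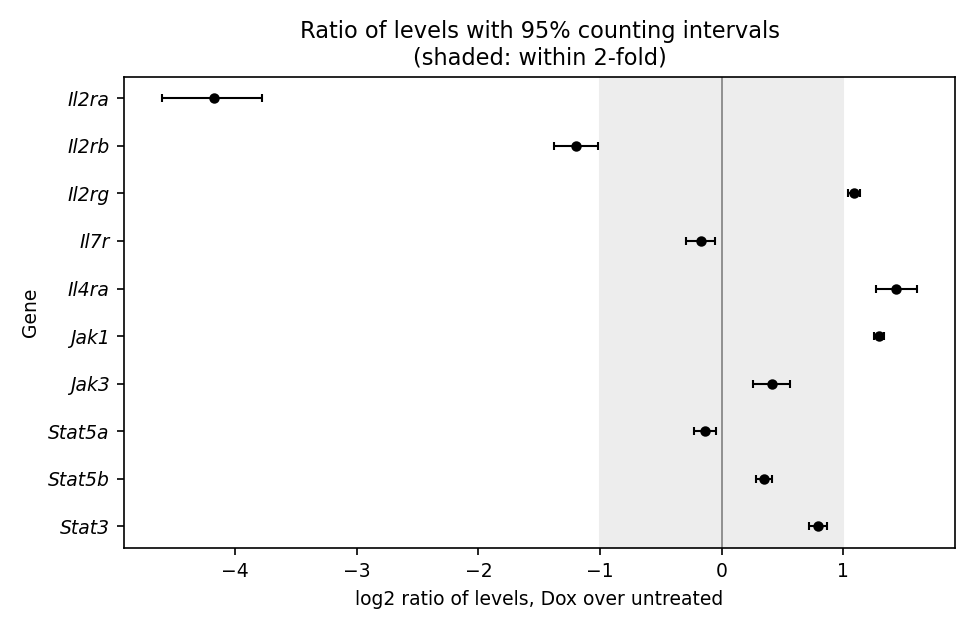
Log2 ratio of the Dox level to the untreated level of each gene, with no prior count, points with 95% counting intervals, and a shaded band for differences within 2-fold. Il2ra and Il2rb lie left of the band, Il2rg, Il4ra and Jak1 right of it, and the other 5 genes inside it.

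Markers of most other cell types summed to more in the Dox library, beside the receptor genes that were higher there. Both samples were sorted on GFP, as GFP-mid cells in the Dox group and GFP-high cells in the untreated group. The labels do not give the genotype of the recipients, and whether host cells passed these gates was not tested. Of 13 macrophage markers, 11 reached 1 CPM in the Dox library and 5 in the untreated library, and the list of 13 summed to 338.3 CPM there and 71.6 CPM in the untreated library, or 157.2 and 11.01 CPM without Itgam. Mpeg1 stood at 96.8 CPM in the Dox library and 1.64 CPM in the untreated library, and Itgam at 181.0 and 60.6 CPM. The 8 dendritic cell markers summed to 169.5 CPM in the Dox library and 113.9 CPM in the untreated library, or 47.9 and 1.11 CPM without Bst2. Clec9a, Siglech, Zbtb46 and Cd209a had 0 counts in the untreated library, and Flt3 stood at 10.7 and 0.703 CPM. B-cell markers were near absent, 3.42 CPM in the Dox library and 0.996 CPM in the untreated library summed over 9 genes, with Pax5 at 0 in both and Cd22 and Cd79a at 12 counts each in the Dox library and 8 and 6 in the untreated library. Neutrophil markers summed to 8.98 CPM in the Dox library and 4.74 CPM in the untreated library, led by S100a9 at 3.79 and 2.11 CPM, with S100a8 at 1.59 and 1.64 CPM. Erythroid markers summed to 59.5 CPM in the Dox library and 8.96 CPM in the untreated library, led by Hba-a2 at 20.3 and 2.87 CPM and Hbb-bs at 17.0 and 3.46 CPM. Stromal and endothelial markers summed to 357.3 CPM in the Dox library and 253.7 CPM in the untreated library, most of it Pecam1 at 316.8 and 166.2 CPM. In the other direction, Col1a2 stood at 32.8 and 76.4 CPM and Pdgfrb at 0.122 and 4.69 CPM. Of the 4 stromal and endothelial genes with at least 1 CPM in 1 library, 2 had positive log2 folds, and the median was -0.54. The part of these cells in the receptor values was not tested.

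Regulatory T cells carry much Il2ra. Of their 6 markers, 2 (Foxp3 and Tnfrsf18) were higher in the Dox library by 2-fold or more and 0 lower by as much. The whole interval exceeded 2-fold for 1, Foxp3. Over all genes, 13.6% were higher and 13.0% lower by 2-fold or more, and 9.11% were higher by the whole interval. Counts among 6 genes are too few to be read against those shares. Foxp3, the defining factor of regulatory T cells, had 37 counts in the Dox library and 5 in the untreated library. The list summed to 248.8 CPM in the Dox library and 131.4 CPM in the untreated library, most of it Ikzf2 at 205.8 and 109.0 CPM, followed by Tnfrsf18 at 30.5 and 14.5 CPM. The part of such cells in the Il2ra value was not tested.

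Per length, the order of the receptor genes differed between the libraries. Over the 8 genes of the gamma chain family, CPM per kilobase in the Dox library ran from Il2rg (383.8) through Il21r (79.9), Il7r (20.6), Il9r (16.5), Il4ra (12.6) and Il2rb (7.90) to Il15ra (0.868) and Il2ra (0.745), and only the counting intervals of the last pair overlapped. In the untreated library the order was Il2rg (180.7), Il21r (39.5), Il9r (32.7), Il7r (23.2), Il2rb (18.1), Il2ra (13.5), Il4ra (4.66) and Il15ra (1.21), with no overlap between neighbours. Il2ra thus had rank 8 of 8 in the Dox library and rank 6 in the untreated library, and Il4ra rank 5 in the Dox library and rank 7 in the untreated library. Among the 5 receptor genes chosen here, Il2rg made up 90.2% of the summed level per length in the Dox library and 75.2% in the untreated library. Il2ra made up 0.175% in the Dox library and 5.61% in the untreated library.

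Ratios between genes of the same library do not depend on scaling. Il2rb stood at 10.6 times Il2ra per length in the Dox library and 1.35 times in the untreated library, a ratio of ratios of 7.88 (interval 5.81 to 10.9). Il2rg stood at 48.6 times Il2rb in the Dox library and 9.98 times in the untreated library, a ratio of ratios of 4.87 (4.27 to 5.56). Il2rg stood at 18.6 times Il7r in the Dox library and 7.78 times in the untreated library. Among the receptor pairs compared, Il4ra per Il2rg differed least between the libraries, 0.0329 in the Dox library and 0.0258 in the untreated library, a ratio of ratios of 1.27 (1.13 to 1.44).

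**Figure D3:**
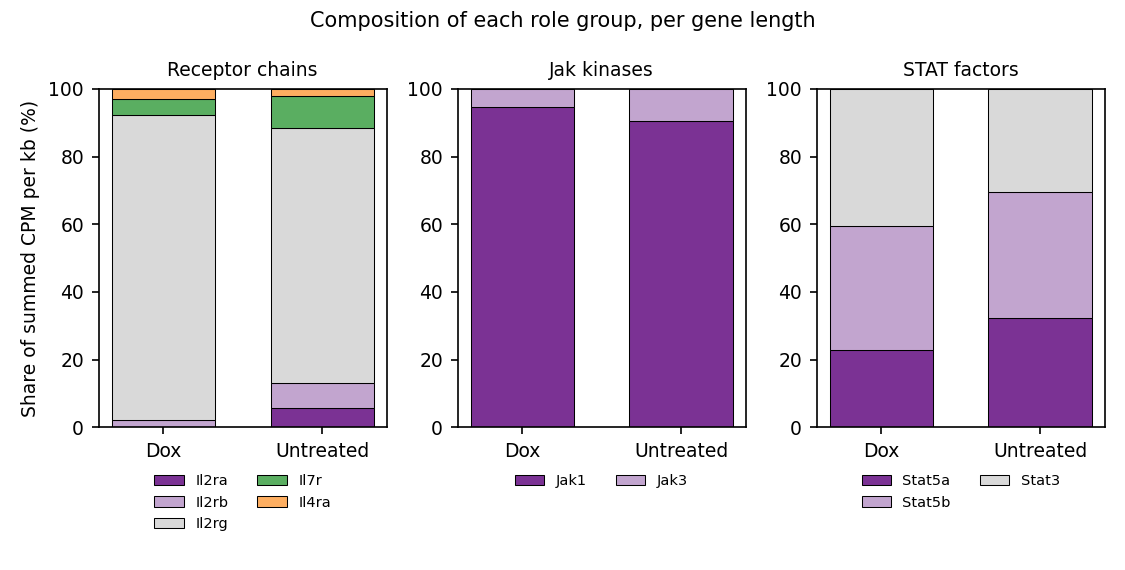
Share of each gene in the summed level per kilobase of its role group, in percent, Dox bar left and untreated bar right, 1 library each. Il2rg fills 90.2% of the receptor bar in the Dox library and 75.2% in the untreated library, and Stat5a 22.8% and 32.4% of the STAT bars.

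The kinase genes were both at higher levels in the Dox library, Jak1 by more. Jak1, which serves many cytokine and interferon receptors, had 17765 counts in the Dox library and 7557 in the untreated library (chromosome 4, 101151974 to 101265282). It stood at 1085 and 442.7 CPM, 2.45-fold higher in the Dox library (interval 2.39-fold to 2.52-fold, log2 fold 1.29). Jak3, which binds the gamma chain, had 782 counts in the Dox library and 613 in the untreated library (chromosome 8, 71676383 to 71690577), or 47.7 and 35.9 CPM. Its ratio was 1.33 (interval 1.19 to 1.48, log2 fold 0.41), and 8.94% of its longest transcript was shared with Insl3 in stretches of 50 bases. Jak1 per length stood at 17.5 times Jak3 in the Dox library and 9.50 times in the untreated library, a ratio of ratios of 1.84 (1.65 to 2.06). Over the 4 kinases of the family the order per length was Jak1, Jak2, Tyk2 and Jak3 in both libraries, and no neighbours overlapped.

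The 3 STAT genes all lay within 2-fold, as did 8900 of the 12125 genes tested. Stat5a (chromosome 11, 100859351 to 100885169) had 1972 counts in the Dox library and 2259 in the untreated library, or 120.4 and 132.3 CPM (ratio 0.910, interval 0.856 to 0.967, log2 fold -0.14). Stat5b (100780731 to 100859004) had 4430 counts in the Dox library and 3629 in the untreated library, or 270.5 and 212.6 CPM (ratio 1.27, interval 1.22 to 1.33, log2 fold 0.35). These encode near-identical proteins. Without correction for gene length, Stat5a made up 30.8% of their joint counts in the Dox library (Wilson interval 29.7% to 31.9%) and 38.4% in the untreated library (37.1% to 39.6%). Per length, Stat5a stood at 0.623 times Stat5b in the Dox library and 0.871 times in the untreated library. Stretches of 50 bases shared with Stat5b or Stat3 made up 16.4% of the longest Stat5a transcript, and 11.8% of the longest Stat5b transcript was shared with Stat5a, so part of their reads may be split or dropped.

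Stat3, which serves the interleukin-6 and interleukin-21 receptors among others (100886806 to 100939594), had the highest fold of the STAT members. It had 4051 counts in the Dox library and 2440 in the untreated library, or 247.3 and 142.9 CPM (ratio 1.73, interval 1.65 to 1.82, log2 fold 0.79). These 3 genes are neighbours on chromosome 11. On the RefSeq coordinates, Stat5b and Stat5a lie 347 bases apart and Stat5a and Stat3 1637 bases apart. In GENCODE M21, Stat5b ends at 100850724, and Stat5a and Stat3 overlap on opposite strands by 72 exonic bases. The log2 folds of the 3 genes nevertheless ran from -0.14 to 0.79, and the counting intervals of the 3 did not overlap. Beyond the cluster, the expressed gene next to Stat5b, Ghdc, had a log2 fold of -0.04, and Cavin1, next to Stat3, had 0 CPM in the Dox library and 1.11 CPM in the untreated library.

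Per length, the order of the 3 STAT genes differed between the libraries. CPM per kilobase in the Dox library was 55.1 for Stat3, 49.7 for Stat5b and 31.0 for Stat5a, and their counting intervals did not overlap. In the untreated library it was 39.1 for Stat5b, 34.0 for Stat5a and 31.9 for Stat3, and the intervals of Stat5a and Stat3 overlapped. These intervals do not cover the choice of gene length. The lengths used were 4487 bases for Stat3, 5442 for Stat5b and 3888 for Stat5a. GENCODE M21 gives 9527, 5539 and 7133 exonic bases, so the place of Stat3 above Stat5b in the Dox library depends on the annotation.

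**Figure D4:**
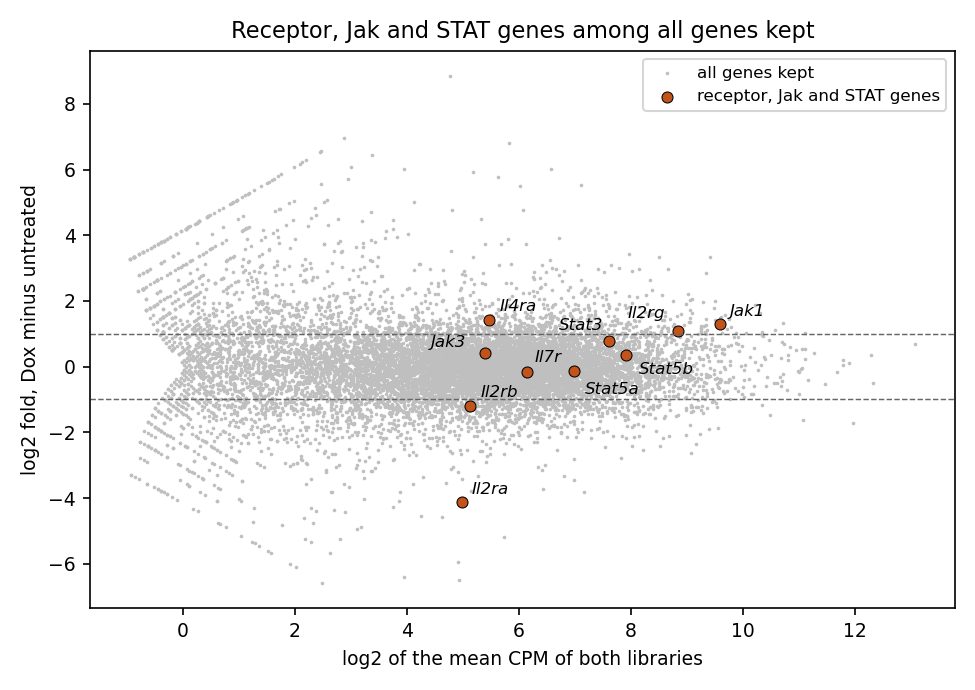
Log2 fold (Dox minus untreated) of each gene with at least 1 CPM in 1 library against the log2 of its mean CPM, with the 10 genes marked and dashed lines at 2-fold. Il2ra lies at -4.13, apart from the other 9, which lie between -1.19 and 1.43.

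The rest of the pathway was taken from lists of its ligands, other receptors, kinases, adaptors, inhibitors and targets. The macrophage and dendritic cell marker sums given above were higher in the Dox library beside these lists as well, and their part in them was not tested. Of 7 cytokine ligand genes, 0 reached 1 CPM in either library, beside 12125 of all 27179 genes that did. With 7 genes, this count is not read as a result about the list. Il2, Il9 and Il21 had 0 counts in both libraries, which allows at most 0.183 CPM in the Dox library and 0.176 CPM in the untreated library, and Il4 had 12 counts in the Dox library and 0 in the untreated library. Of 15 measured other receptor chains, 5 (Il6ra, Ifnar1, Il10ra, Il10rb and Il21r) were higher by 2-fold or more and 0 lower by as much, beside 13.6% and 13.0% of all genes, and the median log2 fold was 0.79. By the whole interval, 3 were higher and 0 lower, beside 9.11% and 8.38% of all genes. Il6ra, the interleukin-6 receptor chain, stood at 280.3 CPM in the Dox library and 59.0 CPM in the untreated library (log2 fold 2.24). Ifnar1, a chain of the type I interferon receptor, had a log2 fold of 1.46, Il10ra, of the interleukin-10 receptor, 1.19 and Il6st, the shared signal chain gp130, 0.72. Il9r, another partner of the gamma chain, stood at 51.0 CPM in the Dox library and 101 CPM in the untreated library (log2 fold -0.99).

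Of 6 other Jak and STAT genes, 3 were higher by 2-fold or more and 0 lower by as much, beside 13.6% and 13.0% of all genes, with a median log2 fold of 0.95. By the whole interval, 2 were higher and 0 lower, beside 9.11% and 8.38% of all genes. Jak2, a kinase of many other cytokine receptors, stood at 232.6 CPM in the Dox library and 69.8 CPM in the untreated library (log2 fold 1.73). Of 8 measured adaptor and Ras route genes, 0 differed by 2-fold or more (median 0.48), beside 13.6% of all genes higher and 13.0% lower. With so few genes, this count is not read as a result about the list. The adaptor gene Grb2 stood at 308.5 CPM in the Dox library and 211.6 CPM in the untreated library.

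Of 17 measured negative regulators, 3 (Cish, Pias3 and Cblb) were higher by 2-fold or more and 0 were lower by as much (median 0.33), beside 13.6% and 13.0% of all genes. The whole interval exceeded 2-fold for 0 of the 17, beside 9.11% of all genes higher and 8.38% lower. The counts are not read as a result about the list. Ptprc, the phosphatase CD45, stood at 1720 CPM in the Dox library and 896.7 CPM in the untreated library (log2 fold 0.94). Cish, a feedback inhibitor that STAT5 induces, had only 33 counts in the Dox library and 14 in the untreated library, and Socs2, another such gene, had 8 counts in both libraries.

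Of 15 measured STAT5 target genes, 3 (Pim1, Lta and Cish) were higher by 2-fold or more and 2 (Myc and Pim3) lower by 2-fold or more, beside 13.6% and 13.0% of all genes, and the median was 0.23. By the whole interval, 2 were higher and 1 lower, beside 9.11% and 8.38% of all genes. These counts are not read as a result about the list. Pim1, a survival kinase, stood at 131.9 CPM in the Dox library and 31.4 CPM in the untreated library (log2 fold 2.07), and Lta, which encodes lymphotoxin alpha, at 16.2 and 3.81 CPM (log2 fold 2.05). Myc, a transcription factor of cell growth that Notch also drives, stood at 18.9 CPM in the Dox library and 265.7 CPM in the untreated library (log2 fold -3.80). Mcl1, an anti-apoptotic gene, had a log2 fold of 0.92, and Bcl2 and Bcl2l1, named after their values were seen, had 0.23 and 0.14.

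Of 13 measured transcription factors known to act on the receptor genes, 2 (Runx3 and Foxo1) were higher by 2-fold or more and 1 (Notch1) lower by as much (median 0.27). Beside 13.6% and 13.0% of all genes, these counts are not read as a result about the list. Runx3 stood at 40.0 CPM in the Dox library and 6.80 CPM in the untreated library (log2 fold 2.54). Foxo1, an activator of Il7r, stood at 332.3 CPM in the Dox library and 99.0 CPM in the untreated library (log2 fold 1.75), beside the small difference of Il7r itself. Notch1 stood at 110.1 CPM in the Dox library and 245.7 CPM in the untreated library (log2 fold -1.16). Tcf7, the most abundant of the list, stood at 3918 CPM in the Dox library and 3665 CPM in the untreated library.

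**Figure D5:**
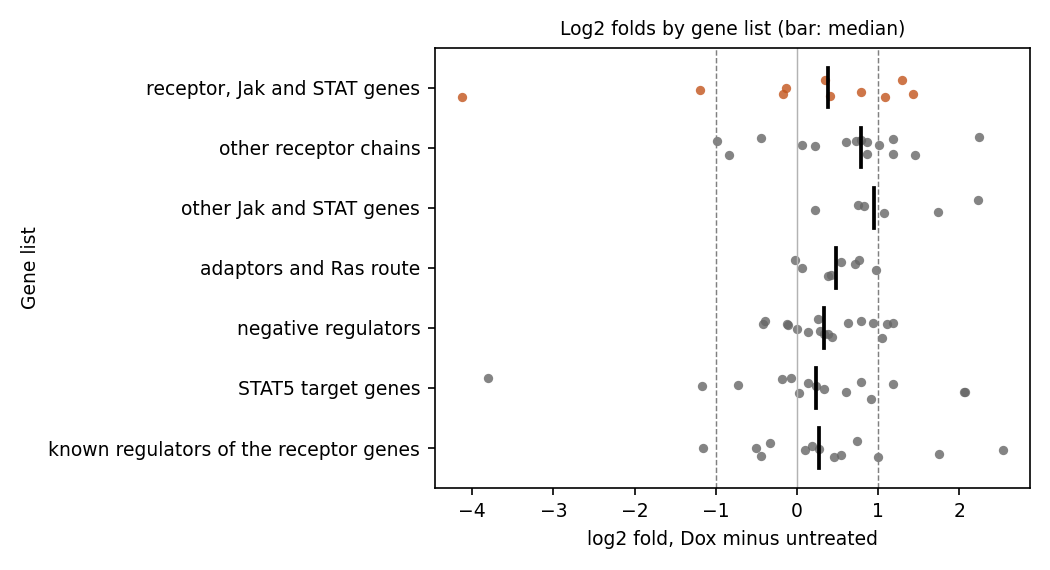
Log2 folds (Dox minus untreated) of the genes in each list, 1 point per gene with at least 1 CPM in 1 library, bars at the median and dashed lines at 2-fold. Medians run from 0.23 for STAT5 targets to 0.95 for other Jak and STAT genes, and Il2ra and Myc are the points near -4.

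The genes with levels closest to Il2ra over the 2 libraries, by Euclidean distance in log2 CPM, were Tnfrsf8 (distance 0.060), Arhgef10l (0.42) and Bcat1 (0.52). Tnfrsf8, which encodes CD30, stood at 3.24 CPM in the Dox library and 61.9 CPM in the untreated library. The closest to Il4ra were Ccdc126 (0.031), Lats2 (0.033) and Trafd1 (0.055). With 2 libraries this measure says only that the pair of levels is alike.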

How the data were processed

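Per the labels, RNA was extracted from sorted leukemia cells with a column kit and libraries followed an Illumina protocol. The deposited values are raw counts per gene, and the authors' table also gives gene lengths. The submitters' processing notes name CASAVA 1.8.2, featureCounts and the build mm10. The sources used here do not give the aligner, strand setting or annotation, so reads of antisense and overlapping genes cannot be told apart. The table and the separate sample tables differed at 0 genes. Symbols for 25275 of 27179 identifiers came from the RefSeq table of GRCm38.

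Counts were scaled with TMM factors over the whole table (0.994 for the Dox library and 1.01 for the untreated library) by edgeR 4.0.16 (R 4.3.3). A log2 fold is the Dox minus the untreated log2 CPM, with 2 as prior count, ratios have none, and genes with at least 1 CPM in 1 library were kept. Ratio intervals are exact Clopper-Pearson 95% intervals, ratios of ratios have exact conditional intervals and levels per length exact Poisson intervals. Levels per length used the gene lengths of the authors' table. Another annotation could change levels and orders between genes, which the intervals do not cover. With 1 library per group no test between conditions was run. A count of 0 allows up to 3 counts. Neighbouring genes are the nearest kept genes on each side.

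The members and lists were chosen with earlier results of these data known. Named genes are the 10 members, Ikzf1, up to 4 genes per pathway list with at least 5 CPM and an interval beyond 2-fold, the most abundant gene of each pathway list, the 2 most abundant of each marker list and the 3 genes closest in level to the lowest and highest member. Not every gene this rule selects is reported here. Others were named after their values were seen, as were the gene pairs and the per-length families. Hbb-bt and Ahsp were not matched. Of the marker lists, natural killer markers are given beside Il2rb and the others together. Alternatives were scaling by total count, DESeq2 1.42.0 or upper quartile, a prior count of 0.5 or 5, no filter or 5 CPM, thinning, totals without genes of other cell types, removal of a gene length trend, a 4-fold threshold and the counting interval. Calculations also used Python 3.11.15 with scipy 1.17.1. The steps were tested on simulated data.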

Additional observations from a re-analysis of the deposited data

How the results depend on the processing

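The count of 3 genes higher by 2-fold or more in the Dox library, and that of 2 genes lower by as much, did not change under 11 of the 12 alternatives run for each. No filter and the filter of 5 CPM could not change these counts, the median or any single fold. Scaling used the whole table, and all 10 genes were kept under both settings. At a 4-fold threshold, 0 were higher and 1, Il2ra, was lower, against 4.46% and 3.07% of all genes. The median log2 fold of the 10 genes lay between 0.29, after removal of the gene length trend, and 0.41, with upper quartile scaling. Log2 folds of single genes under alternatives numbered 100, including those of the filter settings, which were fixed in advance. Of these 100, 96 lay within the gene's counting interval, 4 lay outside it and 0 changed sign. Those 4 came from removal of the gene length trend, which gave 1.21 for Il2rg, 1.18 for Jak1, 0.23 for Stat5b and 0.70 for Stat3. Il2ra ranged from -4.22 to -4.06 and Il2rb from -1.21 to -1.17. No paired analysis was possible because each condition had 1 library. The 54 counts of Il2ra in the Dox library limit its fold to the interval given, and differences between mice cannot be measured with 1 library per condition.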
